A study of Arabidopsis thaliana with 6 samples.

Results

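BGLU28 and 9 other genes that are commonly used as markers of sulfur shortage in Arabidopsis thaliana were followed in seedlings of the mutant naa20-1 and of the wild-type accession Col-0. The 10 genes were taken by locus code from a table of 27827 probe sets, 1 per gene: BGLU28 (AT2G44460), SDI1 (AT5G48850), SDI2 (AT1G04770), LSU1 (AT3G49580), LSU2 (AT5G24660), LSU3 (AT3G49570), GGCT2;1 (AT5G26220), SULTR4;2 (AT3G12520), SULTR1;1 (AT4G08620) and SULTR1;2 (AT1G78000). All 10 were present. BGLU28 was chosen by its measured log2 difference between naa20-1 and Col-0, one of the largest rises in these same arrays, so its values below are a description with no test. The other 9 were chosen for their known response to sulfur shortage, though with earlier results of these data known. The question is how these 9, and the rest of the sulfur pathway, stood in the samples in which BGLU28 was high.

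Total RNA came from whole seedlings of 17 days, grown without further treatment on 1x MS medium under short days (8.5 h of light, 100 µE). One array was made per sample, with 3 samples of Col-0 and 3 of naa20-1, a mutant in which, by the series' description, the catalytic subunit of the N-terminal acetyltransferase complex NatB is depleted. What the allele does to the gene is not described in the labels. Both groups grew on the same complete medium, so sulfur was not withheld from any sample. The arrays do not measure sulfur inside the plants. Transcript of the targeted gene NAA20 (AT1G03150, assigned from general knowledge) stood at 8.79, 8.75 and 8.72 in Col-0 and at 8.10, 7.60 and 7.36 in naa20-1, a log2 difference of -1.07 (SE 0.18, adjusted p = 0.0407). It stayed below 0 without each sample in turn, and its adjusted p was 0.0181 without naa20-1 replicate 1 and 0.077 to 0.135 without any other. All values are log2 expression after RMA, means are given ± SD with n = 3 arrays per group, and differences are taken as naa20-1 less Col-0. The labels do not say whether replicates were grown separately, so p-values speak for the spread among these arrays alone, and part of it may be technical.

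Plants take sulfate up through root transporters of the SULTR1 group, store it in vacuoles and reduce it to sulfide, which is joined to O-acetylserine to make cysteine and, from it, glutathione and methionine. When sulfate runs short, O-acetylserine builds up and a well-known set of genes is strongly induced, in large part under the transcription factor SLIM1. That set takes in sulfate transporters, enzymes that free sulfur from glutathione and from glucosinolates, the sulfur-rich defence compounds of the cabbage family, and the small regulators of the SDI and LSU groups. SDI1 and SDI2 hold back the synthesis of glucosinolates, and BGLU28 is a β-glucosidase that breaks glucosinolates down.

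BGLU28 was higher in all 3 naa20-1 samples. Its level was 4.38, 3.96 and 3.88 in Col-0 replicates 1, 2 and 3 and 5.60, 6.42 and 5.54 in naa20-1 replicates 1, 2 and 3. The lowest naa20-1 value lay 1.17 above the highest Col-0 value, and the means of 4.07 ± 0.27 and 5.85 ± 0.49 differed by 1.78 (SE 0.25), a 3.44-fold difference. The Col-0 values were a little above 3.72, the table's 25th percentile, and background may make up much of them, which leaves the size of the difference uncertain.

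None of the other 9 markers was called in the test, which called few of all genes (1.15%). Differences were positive in 6 and negative in 3, and ran from -0.41 in SULTR1;1 to 1.05 in LSU3. In the limma fit over all 27241 genes matched to the reference gene table, a gene was called at a Benjamini-Hochberg adjusted p under 0.05. By that rule 0 of 9 were called higher and 0 of 9 lower, against 0.382% and 0.767% of all genes (1.15% in both directions). At an unadjusted p under 0.05 there were 4 of 9, against 14.2% of all genes. Of these, LSU3, GGCT2;1 and SULTR4;2 were higher and SULTR1;2 was lower. In 3 of 9 the values of the groups did not overlap, with GGCT2;1 and SULTR4;2 above and SULTR1;2 below, where 21% of all genes had no overlap (10.6% above and 10.5% below). The median difference of the 9 was 0.17, and that of all genes was 0.0051. With 1 sample left out, naa20-1 replicate 1, 2 of the 9 were called higher and the median was 0.53. That fit called 53 of all 27241 genes higher and 120 lower.

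**Figure D1:**
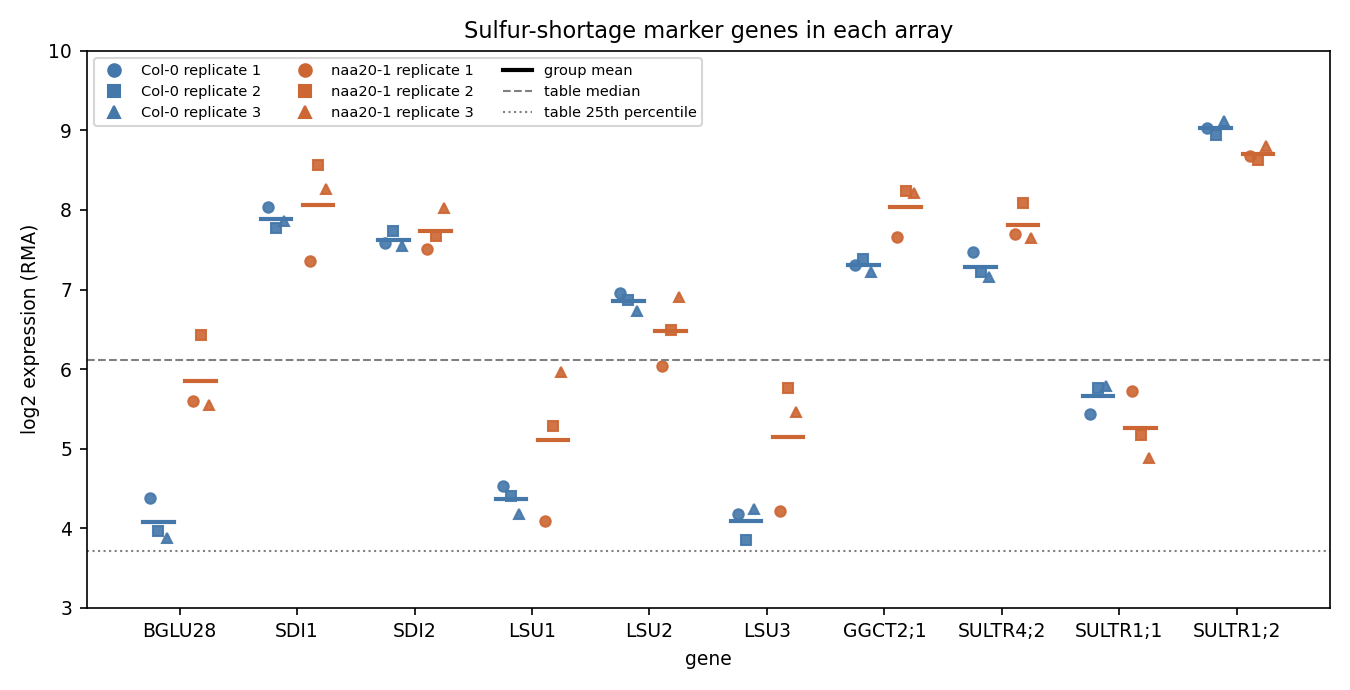
Log2 expression (RMA) of the 10 marker genes in each array, with 3 Col-0 arrays in blue and 3 naa20-1 arrays in orange. Symbols give the replicate, bars the group mean, and lines the whole table's median and 25th percentile. BGLU28 is separated between the genotypes by 1.17, while in SDI1, LSU1, LSU2 and LSU3 naa20-1 replicate 1 lies within or below Col-0 and is the lowest mutant array.

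SDI1 and SDI2 encode related proteins with tetratricopeptide repeats and did not pass the test. SDI1 stood at 8.04, 7.77 and 7.86 in Col-0 and at 7.35, 8.57 and 8.26 in naa20-1. One naa20-1 sample was thus below every Col-0 sample and the other 2 were above every one. The difference was 0.17 (SE 0.28, adjusted p = 0.834), with a 95% interval from -0.49 to 0.83. SDI2 stood at 7.59, 7.73 and 7.55 in Col-0 and at 7.51, 7.67 and 8.02 in naa20-1, and only naa20-1 replicate 3 lay above Col-0. Its difference was 0.11 (SE 0.14, adjusted p = 0.781) with an interval from -0.22 to 0.44. These intervals are for single genes and are not adjusted for the number of genes.

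The LSU genes encode short proteins with a coiled coil, named for their response to low sulfur, and their differences ran in both directions. LSU1 stood at 4.53, 4.41 and 4.18 in Col-0 and at 4.09, 5.28 and 5.96 in naa20-1. LSU3, its neighbour on chromosome 3, stood at 4.18, 3.85 and 4.25 in Col-0 and at 4.22, 5.76 and 5.46 in naa20-1. In both genes naa20-1 replicates 2 and 3 were well above Col-0, while replicate 1 lay below Col-0 in LSU1 and within it in LSU3. The difference of LSU1 was 0.74 (SE 0.41, 95% interval -0.23 to 1.70, adjusted p = 0.483), and that of LSU3 was 1.05 (SE 0.36, interval 0.20 to 1.90, adjusted p = 0.251). Without naa20-1 replicate 1 the difference of LSU3 was 1.52 and passed the test (adjusted p = 0.0244), and that of LSU1 was 1.25 (adjusted p = 0.0817).

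LSU2 stood at 6.96, 6.87 and 6.73 in Col-0 and at 6.03, 6.50 and 6.90 in naa20-1. It was below every Col-0 sample in naa20-1 replicates 1 and 2, with a difference of -0.38 (SE 0.20, interval -0.85 to 0.10, adjusted p = 0.470). LSU4, which lies next to LSU2 on chromosome 5, had means of 3.71 ± 0.24 (Col-0) and 3.60 ± 0.39 (naa20-1, difference -0.11, adjusted p = 0.854). The levels of LSU1, LSU3 and LSU4 in Col-0 were near the table's 25th percentile, where background can weigh. The LSU genes resemble each other in sequence and the labels do not describe the probes, so it is uncertain how far each value measures a single gene.

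GGCT2;1 encodes a γ-glutamyl cyclotransferase that breaks down glutathione in the cytosol. It was higher in all 3 naa20-1 samples, at 7.66, 8.24 and 8.21 against 7.31, 7.38 and 7.22 in Col-0. The difference of 0.73 (SE 0.16, interval 0.35 to 1.11) did not pass the test (adjusted p = 0.0973). It passed without naa20-1 replicate 1 (0.92, adjusted p = 0.0272) and with a variance trend and robust fit (adjusted p = 0.0244), and without any other single sample its adjusted p was 0.199 to 0.254. The related gene GGCT2;2 differed the other way, at 10.40 ± 0.09 in Col-0 and 9.77 ± 0.28 in naa20-1 (difference -0.64, SE 0.15, adjusted p = 0.107).

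The sulfate transporters of the set divided into the vacuolar one, which was higher, and the pair of root uptake transporters, which were lower, and none passed the test. SULTR4;2 releases sulfate from the vacuole. It stood at 7.47, 7.22 and 7.15 in Col-0 and at 7.70, 8.08 and 7.64 in naa20-1, with no overlap and a difference of 0.53 (SE 0.15, interval 0.19 to 0.87, adjusted p = 0.161).

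SULTR1;1 and SULTR1;2 carry sulfate into the root, and SULTR1;1 is the one most strongly induced when sulfate is short. SULTR1;1 stood at 5.44, 5.77 and 5.79 in Col-0 and at 5.72, 5.17 and 4.88 in naa20-1, so that 2 of the 3 mutant samples lay below Col-0. Its difference was -0.41 (SE 0.21, interval -0.91 to 0.09, adjusted p = 0.446). SULTR1;2 stood at 9.03, 8.95 and 9.11 in Col-0 and at 8.67, 8.62 and 8.80 in naa20-1, with every mutant sample lower and a difference of -0.33 (SE 0.09, interval -0.55 to -0.11, adjusted p = 0.167). For both, the 95% interval ends at or below 0.09 on the log2 scale.

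Most markers of root tissue were lower in naa20-1 beside these transporters, and some were higher. Of 16 root markers, 11 differences were negative and 5 positive, none was called in limma (9 at an unadjusted p under 0.05, where 14.2% of all genes were), and the median was -0.17. Their summed log2 level was 116.7 to 117.4 in the Col-0 samples and 112.5 to 114.0 in the naa20-1 samples. The Casparian strip genes CASP1 to CASP5 had differences from -0.98 to -0.40. TIP2;3 differed by -0.69 (adjusted p = 0.0500024 in limma, just over the threshold) and PRP3 by -0.45. All of these were lower with no overlap between the groups. PYK10, an abundant root β-glucosidase, and PHO1, which loads phosphate into the xylem, differed by 0.23 and 0.27, also with no overlap. Over all genes 10.5% lay below Col-0 with no overlap and 10.6% lay above. The groups overlapped in EXPA7 (-0.07), PRP1 (-0.07), RHD6 (-0.07), EXPA18 (-0.27), COBL9 (0.04), NRT2.1 (0.10) and MYB36 (0.13). The CASP genes, TIP2;3 and PRP3 thus made up the whole fall in the sum. MYB36 and RHD6 were under the 25th percentile of the table in every sample. Whether a change in root tissue has a part in the values of SULTR1;1 and SULTR1;2 was not tested, and in whole seedlings fewer cells of a type and less RNA per cell cannot be told apart. Of 6 green shoot markers, 5 differences were negative and none was called (1 at an unadjusted p under 0.05, median -0.09). Among them RCA (-0.05) and LHCB1.3 (-0.22) were also lower with no overlap. Both tissues were thus present in the samples.

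**Figure D2:**
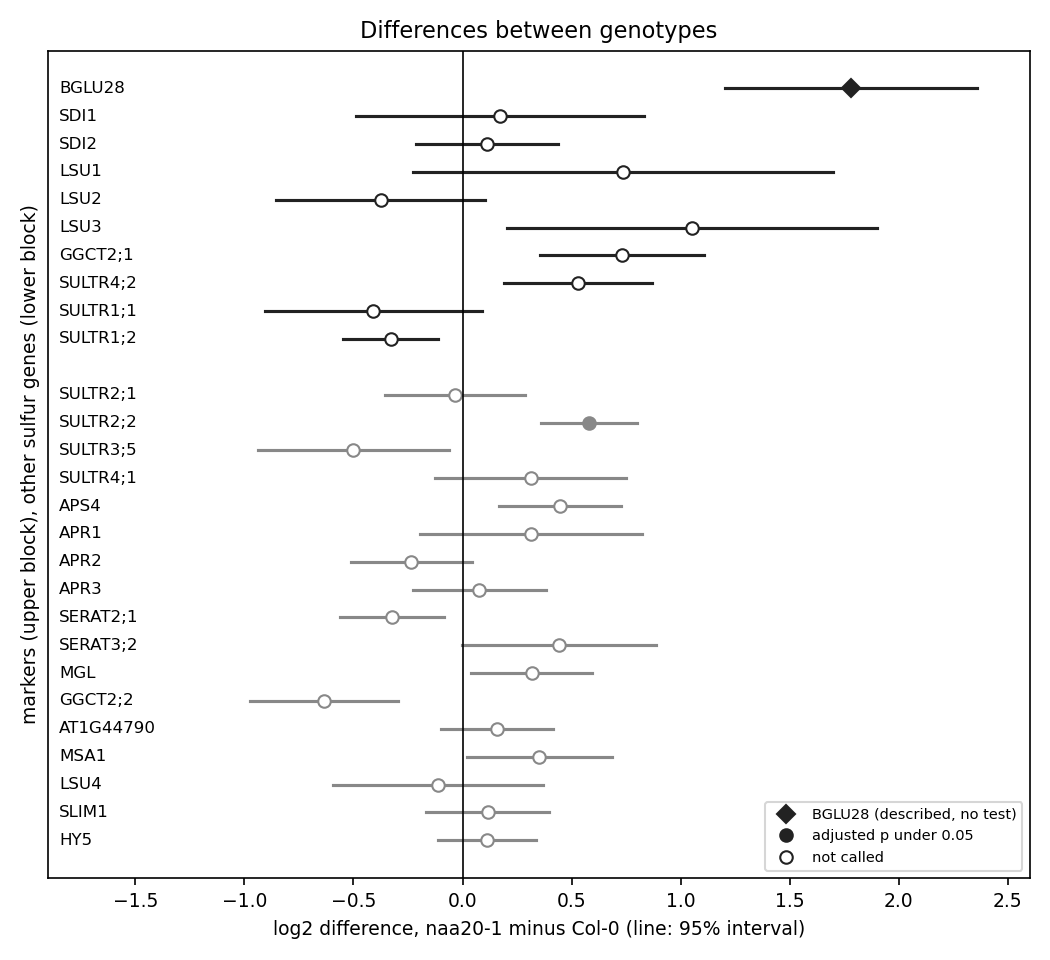
Log2 difference between naa20-1 and Col-0 for the 10 markers (upper block) and for the other sulfur genes named in the text (lower block), with 95% intervals over 3 arrays per group. BGLU28 stands at 1.78, the other markers between -0.41 and 1.05 with open symbols (not called), and SULTR2;2 is the only called gene of the lower block, at 0.58.

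Within naa20-1 most of the 9 markers varied more than most genes, and the same sample was lowest in 6 of them. All 9 had a larger SD in naa20-1 than in Col-0, as did 56.3% of all genes. Their median SD was 0.14 in Col-0 and 0.43 in naa20-1, where the medians over all genes were 0.12 and 0.14. The SD within naa20-1 lay at the 99.9th percentile of all genes for LSU1, the 99.7th for LSU3 and the 99.2nd for SDI1. For LSU2, SULTR1;1, GGCT2;1, SDI2 and SULTR4;2 it lay between the 80.6th and the 96.6th, and for SULTR1;2 at the 30.6th. SDI1, SDI2, LSU1, LSU2, LSU3 and GGCT2;1 were each lowest in naa20-1 replicate 1, while 30.9% of all genes were lowest there. These 6 were grouped after their values were seen.

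BGLU28 was not lowest in naa20-1 replicate 1, though its replicates 1 and 3 were close. Its deviation from the Col-0 mean was 1.52 in naa20-1 replicate 1, 2.35 in replicate 2 and 1.47 in replicate 3. It was thus as high in the sample where SDI1, SDI2, LSU1 and LSU2 were below Col-0 as in replicate 3. Of the 9 markers, SULTR4;2 had the same order as BGLU28, with deviations of 0.42, 0.80 and 0.36. SDI1, LSU3 and GGCT2;1 were also highest in replicate 2. In naa20-1 replicate 1, BGLU28, GGCT2;1 and SULTR4;2 were above all Col-0 samples, while SDI1, SDI2, LSU1, LSU2 and SULTR1;2 were below all of them. The mean deviation of the 9 markers from Col-0 was -0.13, 0.42 and 0.45 in naa20-1 replicates 1, 2 and 3. The same replicate 1 had the highest NAA20 level of the mutant samples, 8.10, and the part of that level in these values was not tested.

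**Figure D3:**
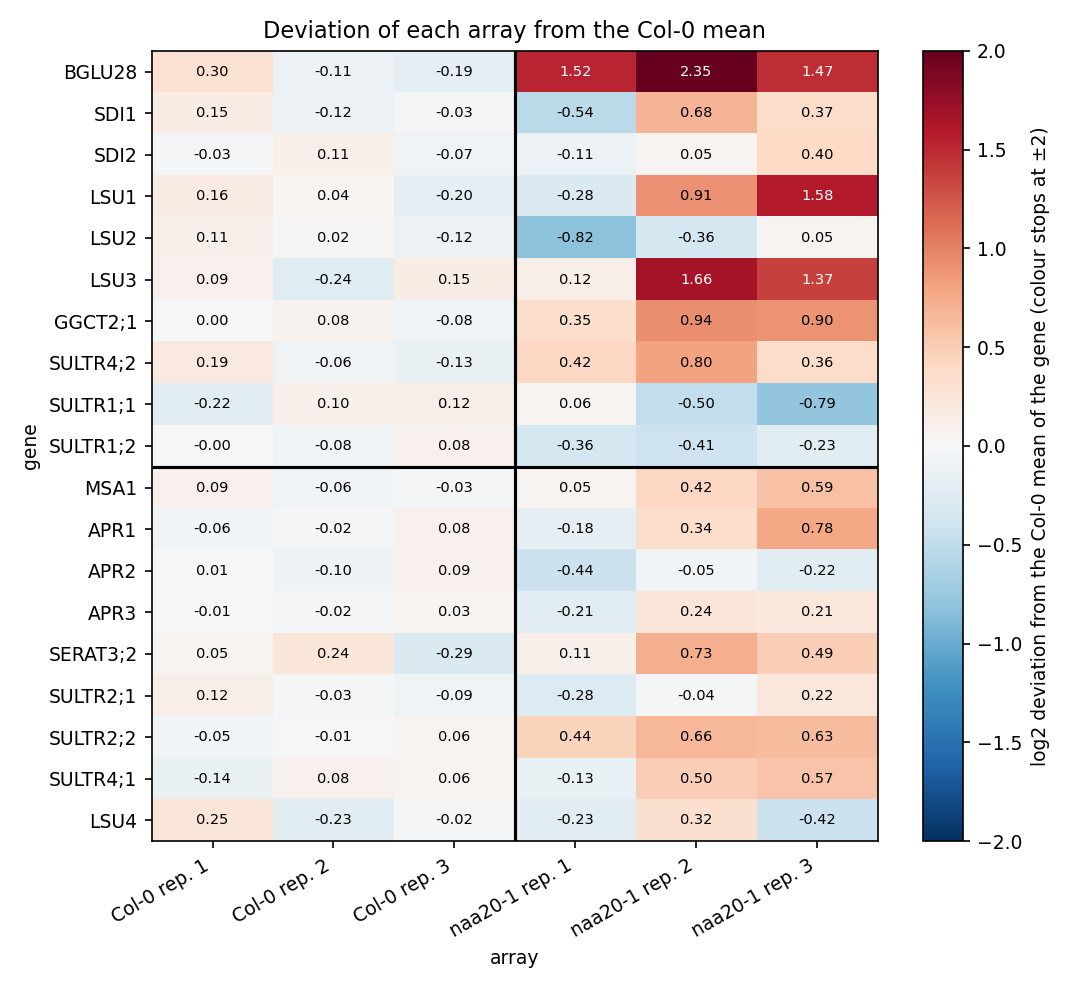
Deviation of each array (columns) from the Col-0 mean of the gene (rows), in log2 units, for the 10 markers above the line and 9 other sulfur genes below it. In naa20-1 replicate 1 BGLU28 is at 1.52 while SDI1 is at -0.54 and LSU2 at -0.82, and in replicates 2 and 3 LSU3 is at 1.66 and 1.37.

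The rest of the sulfur pathway was read from 51 further genes listed from knowledge of the pathway. Of these, 1 was called higher (SULTR2;2), 0 were called lower and 50 were not called, and 7 were at an unadjusted p under 0.05. Over all genes these shares were 0.382% higher, 0.767% lower and 14.2% at an unadjusted p under 0.05, and 7 of 51 is near the last of them. Differences were positive in 29 and negative in 22, with a median of 0.06. The largest positive and negative differences were 0.58 and -0.64.

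SULTR2;2, a low-affinity transporter of the vascular tissue, rose from 7.73, 7.77 and 7.84 in Col-0 to 8.22, 8.44 and 8.41 in naa20-1. The difference was 0.58 (SE 0.09, 1.49-fold, adjusted p = 0.0398). The call was close to the threshold: without each sample in turn the adjusted p was 0.0521 to 0.139, and the fit with the replicate number as a block gave 0.0899, with the difference still above 0. SULTR2;2 and SULTR1;2, which differed in opposite directions, lie on chromosome 1 with a single annotated non-coding RNA gene between them.

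The other 8 sulfate transporters of that list were not called, where 1.15% of all genes were. SULTR2;1, which loads sulfate for transport to the shoot and is known to respond to sulfur supply, stood at 9.16 ± 0.11 in Col-0 and 9.12 ± 0.25 in naa20-1 (difference -0.03, adjusted p = 0.942). SULTR4;1, the other vacuolar exporter, differed by 0.31 (SE 0.19, adjusted p = 0.517), and SULTR3;5 by -0.50 (SE 0.19, adjusted p = 0.287). SULTR3;5 alone of the 8 was at an unadjusted p under 0.05, as were 14.2% of all genes. It was lower in every mutant sample, with no overlap, as were 10.5% of all genes.

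None of the 12 genes of sulfate activation and reduction was called, and 1 was at an unadjusted p under 0.05, APS4. Over all genes these shares were 1.15% and 14.2%, so a list of this size would hold few calls. APS4, an ATP sulfurylase that activates sulfate, was higher in all 3 naa20-1 samples, at 7.72, 7.58 and 7.88 against 7.29, 7.44 and 7.12, a difference of 0.45 (SE 0.12, adjusted p = 0.155). The APS reductase genes, whose enzymes set the pace of sulfate reduction and which respond to sulfur supply, differed little or in both directions. APR1 differed by 0.31 (SE 0.22, adjusted p = 0.579), APR2 by -0.24 (SE 0.12, adjusted p = 0.433) and APR3 by 0.08 (SE 0.13, adjusted p = 0.838). Each of the 3 was lowest in naa20-1 replicate 1 among the mutant samples, as SDI1, SDI2 and LSU1 to LSU3 were (LSU4 was lowest in replicate 3), and 27 of the 51 genes (52.9%) were lowest there.

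In cysteine and methionine synthesis 0 of 12 genes were called (1.15% of all genes) and 2 were at an unadjusted p under 0.05 (14.2% of all genes). These 2 were SERAT2;1, a serine acetyltransferase that makes O-acetylserine, with a difference of -0.32 (SE 0.10, adjusted p = 0.213), and MGL, a methionine γ-lyase, with 0.32 (SE 0.12, adjusted p = 0.286). SERAT3;2, an acetyltransferase gene known to rise under sulfur shortage, stood at 7.14 ± 0.27 in Col-0 and 7.58 ± 0.31 in naa20-1 (difference 0.44, SE 0.19, adjusted p = 0.356). In glutathione synthesis and breakdown 0 of 8 were called, and GGCT2;2 alone was at an unadjusted p under 0.05, beside the same shares of all genes. After GGCT2;2, the smallest p there was that of AT1G44790, with a difference of 0.16 (SE 0.11, adjusted p = 0.578).

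Among 10 further response genes and regulators 0 were called (1.15% of all genes) and 1, SHM7, was at an unadjusted p under 0.05 (14.2% of all genes). SHM7, known as MSA1 and often grouped with SDI1, LSU1 and GGCT2;1 as a gene that follows O-acetylserine, stood at 11.29, 11.14 and 11.17 in Col-0 and at 11.25, 11.62 and 11.79 in naa20-1. Its naa20-1 replicate 1 lay within Col-0 and the other 2 above it, with a difference of 0.35 (SE 0.14, adjusted p = 0.323). SLIM1 differed by 0.12 (SE 0.12, adjusted p = 0.729) and HY5, a light-response factor that also acts on APS reductase genes, by 0.11 (SE 0.10, adjusted p = 0.665). The 6 precursors of miR395, a microRNA induced by sulfur shortage, had differences from -0.11 to 0.14. Their group means, 2.05 to 2.37, were below the table's 25th percentile, so these signals may be background.

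The genes next to BGLU28 did not pass the test. BGLU28 lies on chromosome 2 in a row of related genes with BGLU15, BGLU29, BGLU17 and PEN2. None of these 4 was called, where 1.15% of all genes were. PEN2 alone had an unadjusted p under 0.05, as had 14.2% of all genes. BGLU15 differed by -0.05 (adjusted p = 0.877), BGLU29 by 0.09 (0.715) and BGLU17 by -0.01 (0.984). PEN2, which acts on indole glucosinolates in defence, stood at 7.93, 8.01 and 8.07 in Col-0 and at 7.84, 7.75 and 7.79 in naa20-1 (difference -0.21, SE 0.08, adjusted p = 0.316). BGLU29 was under the 25th percentile of the table in every sample.

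DIN2 (BGLU30), the β-glucosidase gene reported to rise together with BGLU28 under sulfur shortage, stood at 5.70, 5.65 and 5.74 in Col-0 and at 5.65, 5.95 and 6.08 in naa20-1. Only 2 of its 3 mutant samples were above Col-0, and the difference was 0.20 (SE 0.12, interval -0.09 to 0.48, adjusted p = 0.533).

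Over the 46 family members other than BGLU28, including the myrosinase genes, 1 was called higher, 2 were called lower and 43 were not called, and 7 were at an unadjusted p under 0.05. Over all genes 0.382% were called higher, 0.767% lower, and 14.2% were at an unadjusted p under 0.05. BGLU25 rose from 6.95 ± 0.05 to 7.70 ± 0.16 (difference 0.75, SE 0.10, adjusted p = 0.0235). BGLU7 fell from 5.96 ± 0.25 to 4.52 ± 0.41 (difference -1.45, SE 0.21, adjusted p = 0.0289). TGG2, a myrosinase that hydrolyses glucosinolates on tissue damage, fell from 11.65 ± 0.04 to 10.49 ± 0.18 (difference -1.16, SE 0.11, adjusted p = 0.00617). The calls of BGLU25 and BGLU7 were each lost on leaving out any of 5 of the 6 single samples, and that of TGG2 was kept without each sample in turn (adjusted p at most 0.0438). BGLU19, with the next largest positive difference in the family, 1.12 (SE 0.28, adjusted p = 0.134), was under the 25th percentile in Col-0.

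**Figure D4:**
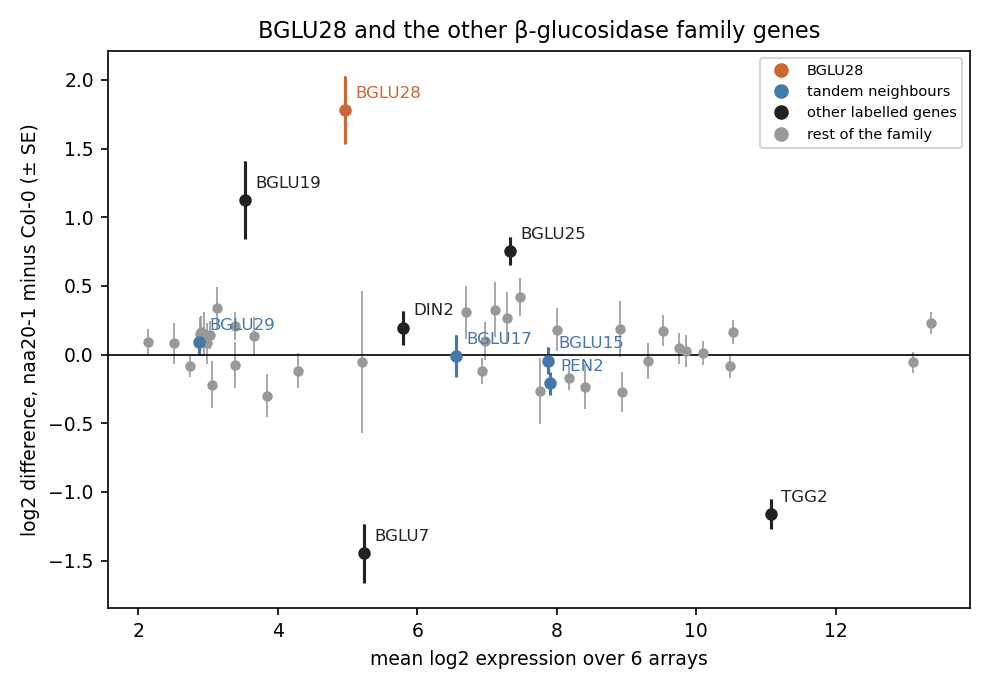
Log2 difference between naa20-1 and Col-0 (± SE, 3 arrays per group) against mean log2 expression for 47 β-glucosidase family genes. BGLU28 is at 1.78, its tandem neighbours are between -0.21 and 0.09, and BGLU7 and TGG2 are at -1.45 and -1.16.

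The profile of BGLU28 was set against those of all other genes. Likeness was the root mean square difference over the 6 samples after each gene's Col-0 mean was subtracted. Small values thus mean a rise of like size, and the order of the samples weighs less. Among the 13728 genes with a mean over the 6 samples at or above the table median, 6.12, the 5 closest were AT5G19110 (0.45), the non-coding RNA AT5G26146 (0.47), AT5G60260 (0.49), AT2G41810 (0.50) and SCPL7, a serine carboxypeptidase-like gene (0.53). They stood 7th, 9th, 10th, 12th and 16th among all 27240 other genes, and the genes between and before them had lower means. AT5G60260 and SCPL7 were below the table median in Col-0, at 5.85 and 6.10, and came over it through naa20-1. The differences of the 5 ran from 1.19 to 1.62. BGLU28 itself, LSU1, LSU3 and SULTR1;1 had means under the table median, so that these markers could not be among the 5. Of the 9 markers, LSU3 was closest to BGLU28 at 0.66, the 39th of all 27240 other genes, followed by GGCT2;1 at 0.80 (111th) and SULTR4;2 at 0.90 (226th). In naa20-1 replicate 1, however, LSU3 deviated by 0.12 and BGLU28 by 1.52. LSU1 was at 0.95, SDI1 at 1.18 and SDI2 at 1.24, and SULTR1;1, SULTR1;2 and LSU2 were at 1.54 to 1.62. These ranks come from the same values that picked BGLU28 and are a description.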

How the data were processed

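The deposited table holds log2 expression values computed by the authors with RMA (background correction, quantile normalization and probe summary), per the submitters' processing notes. No array type, software version or detection call came with it. The values span 1.75 to 14.58 (median 6.12), and Pearson correlations between arrays were 0.993 to 0.995 within groups and 0.990 to 0.993 between them. The number of arrays limits the precision.

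Names and gene order came from the TAIR10.1 gene table, which matched 27241 probe sets, and the 586 others were left out. These genes were fitted in R 4.3.3 with limma 3.58.1 (lmFit, eBayes, genotype only, two-sided), with Benjamini-Hochberg adjustment over all 27241 and no filter on low values. SE and intervals are moderated. In a simulation of this comparison on 27241 genes, 28% of genes changed by 0.5 on the log2 scale were recovered, 52% at 1, 90% at 1.5 and 96% at 2, and 5 of 138 calls were false. The changed genes, 50 of each size, were drawn at random from all genes. Noise was normal and independent, with each gene's observed SD taken as its true SD. The shares may thus differ in the real arrays. The median SD within groups was 0.14 over all genes and 0.32 over the 9 markers, so these shares are not those of the markers.

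The markers and lists were chosen with earlier results of these data known, and no list was tested as a set. Named were all markers, in each other list the called genes or else the 2 with the smallest p, the neighbours and called relatives of BGLU28, and the 5 genes most like it. SULTR2;1, SULTR3;5, SULTR4;1, APR1, APR3, SERAT3;2, LSU4, SLIM1, DIN2 and BGLU19 were added to these once their values had been seen. So were the root and shoot markers given by name. The names SDI2 and MSA1 and the roles of genes are general knowledge. Alternatives covered normalization, centring, dim probe sets, the variance model, the genes adjusted over, the replicate block and omission of each sample.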

Additional observations from a re-analysis of the deposited data

How the results depend on the processing

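The root markers TIP2;3, PRP3, PRP1, EXPA7, EXPA18, COBL9 and NRT2.1 and the shoot markers RCA and LHCB1.3 were not followed in the alternatives. Repeated quantile normalization, centring on array medians and keeping all probe sets in the adjustment changed no call among the other genes named. With a variance trend and robust fit, 1 of the 9 markers was called higher (GGCT2;1) and 1 of the 51 other sulfur genes lower (GGCT2;2, adjusted p = 0.0253). Of the root markers followed in that fit, CASP1 (0.0123) and PYK10 (0.0235) were called. AT5G19110, one of the 5 genes most like BGLU28, was called there too (0.0173). Removal of the dimmest 40% of probe sets took BGLU28, LSU1 and LSU3 out of the fit. The median was 0.11 over the 7 markers left and none was called, while AT5G19110 (0.0367) and AT2G41810 (0.0384) were. Leaving out each sample in turn gave 0 to 2 of the 9 markers called higher, 0 called lower, and a median difference from 0.070 to 0.53, the highest without naa20-1 replicate 1. It gave 0 other sulfur genes called higher in every case and 0 called lower. The difference of BGLU28 ran from 1.496 without naa20-1 replicate 2 to 1.94 without naa20-1 replicate 3.

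With the replicate number as a block, 0 of the 51 other sulfur genes were called higher (SULTR2;2, adjusted p = 0.0899). In that fit none of the 9 markers was called, NAA20 did not pass (0.0542) and AT2G41810 was called (0.0165). The titles number the samples of each group 1, 2 and 3, but another label numbers the naa20-1 samples 1, 3 and 4. Deviations from the group means correlated at 0.02, 0.06 and 0.01 between same-numbered samples and at -0.05 to 0.02 between differently numbered ones. Values this close cannot settle whether samples were paired, and the numbers were not taken as pairs. Over all genes, 104 were called higher and 209 lower, against 61 and 129 with the block, 311 and 486 with the variance trend and robust fit, and 11 to 63 and 51 to 134 with a sample left out.

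On leaving out single samples, the differences of genes near 0 changed sign. SDI1 ranged from -0.081 to 0.53, SDI2 from -0.033 to 0.22, SULTR2;1 from -0.16 to 0.088, LSU4 from -0.33 to 0.044, BGLU15 from -0.10 to 0.017, BGLU17 from -0.11 to 0.13, MYB36 from -0.078 to 0.24 and APR3 from -0.0031 to 0.22. The cause was not tested. Signals near the 25th percentile of the table limit what can be read from BGLU28, LSU1 and LSU3 in Col-0.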
